A study of Mus musculus with 2 samples.

Results

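The peaks described here are the KDM4A peaks that were found in both libraries of a ChIP-seq experiment in 3T3-L1 cells and that hold a fair share of reads with 1 best place in the genome. They were chosen by measured values: peaks of the 2 deposited lists with 1 bp or more in common were joined, joined peaks on chromosomes 1 to 19 and X with a peak of each list were kept, and those with at least 20% of reads at a mapping quality of 30 or more were selected. Of 629 shared peaks on these chromosomes, 350 (55.6%) met this rule, out of 1886 joined peaks in all. In 119 of the 350 the share was at least 50%, and in 35 it was at least 90%. The 350 hold 429 of the 1657 peaks deposited for the first library and 418 of the 1349 deposited for the second.

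3T3-L1 is an established mouse preadipocyte line that forms fat-storing cells under an adipogenic hormone mixture, and both groups were transfected and then induced to differentiate. The siCTL group received a control siRNA and the siGPS2 group received siRNAs against GPS2. Each group is 1 library, made with an antibody labelled anti-KMD4A (from Abcam, ab47984) and read on an Illumina GAII. No input or control-antibody library was used here, so reads that pile up without the antibody cannot be told apart from KDM4A at any single peak.

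KDM4A is an enzyme that takes methyl groups off lysines of histone H3 and so can reverse repressive chromatin marks. GPS2 belongs to the NCoR/SMRT corepressor complex, which works with the deacetylase HDAC3, and it has been studied in adipocytes as a partner of nuclear receptors. In ChIP-seq a bound site shows as a mound of reads, with reads of the plus strand lying before the site and reads of the minus strand after it. An aligner gives a read a high mapping quality when its best place in the genome is clearly better than any other, and a low one when the read fits several copies of a repeat about equally well. A pile of low-quality reads can thus hold reads that came from another copy.

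The siCTL library held 6559860 distinct reads and the siGPS2 library 4940261, with 83.6% and 83.3% at high mapping quality (30 or more). Only 1 read per position and strand was counted. With 1 library per group there is no replicate check and no p-value. The intervals given are exact 95% intervals that cover counting error only, and those on a ratio compare these 2 libraries and not the conditions. No molecular identifiers were used, so reads cannot be taken as independent molecules.

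The share of high-quality reads that defined the selection did not fall off evenly. In steps of 10 percentage points, from the lowest to the highest, the 629 shared peaks numbered 155, 124, 110, 73, 48, 34, 23, 14, 13 and 35, so that the top step held more peaks than any of the 4 before it. The results use 3 classes: 231 peaks at 20 to under 50%, 84 at 50 to under 90% and 35 at 90% or more. Just inside the 20% limit lay the peaks on chromosome 1 at 158920573 and chromosome 10 at 43924324, both at 20% and taken from 9 peaks at exactly that share, and just outside lay 2 peaks on chromosome 8 at 20270595 and 19783754, both at 19.7%. Just inside 50% were chromosome 13 at 111722961 and chromosome 18 at 82361078, both at 50% and taken from 5 at exactly that share, and just outside were chromosome 9 at 123309686 at 48.8% and chromosome 17 at 3308803 at 48%.

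The reads of lower quality were not all alike. In the class at 20 to under 50%, 47.7% of reads had a mapping quality of 0 or 1, the lowest scores, 22.0% had 2 to 29, and only 10.7% had 42, the highest in the files. At 50 to under 90% the shares were 22.2% at 0 or 1 and 33.0% at 42. At 90% or more, 93.1% of reads had a score of 42 and 1.1% had 0 or 1. Shared peaks under the 20% limit had 73.9% at 0 or 1 and 1.7% at 42.

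**Figure D1:**
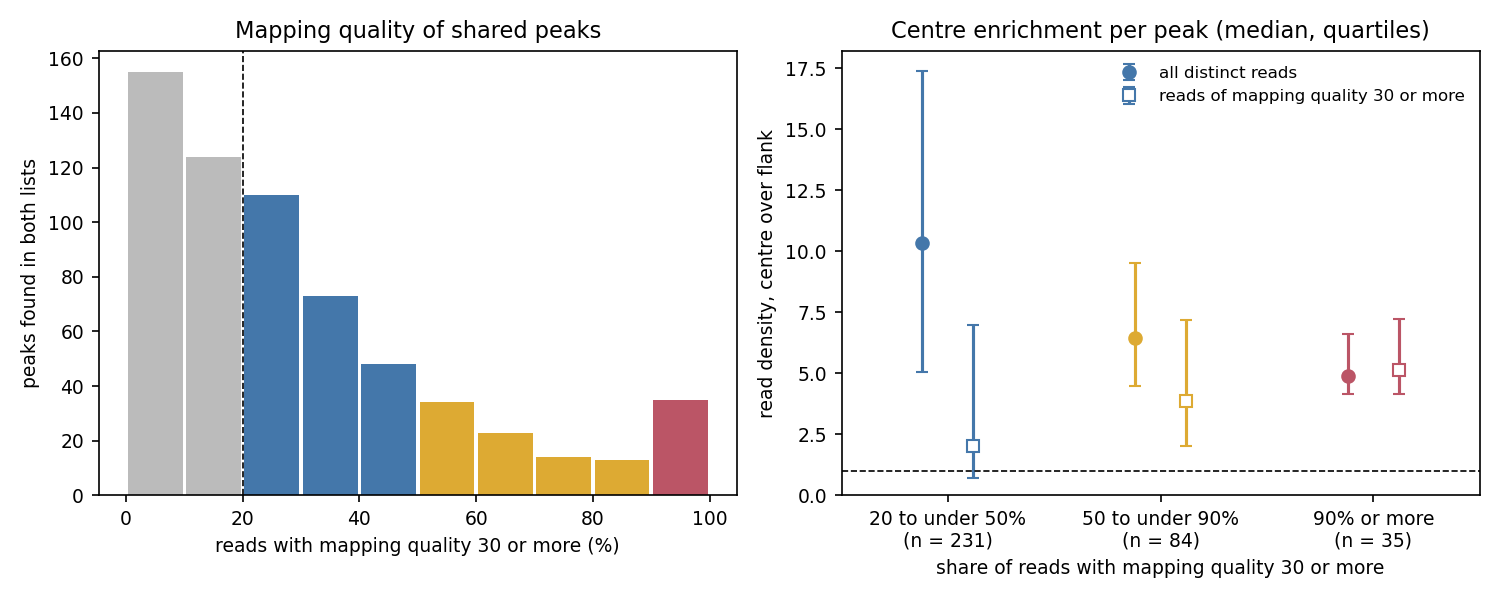
Left, number of shared peaks by the share of their reads with a mapping quality of 30 or more (percent). Right, for the 3 classes of selected peaks, read density within 150 bp of the centre over that 2000 to 10000 bp away, as the median over peaks (points) with quartiles (bars) and a dashed line at equal density. The count rises again at 90% or more, where 35 peaks lie, and the medians run from 10.3 to 4.89 with all reads. With high-quality reads they run from 2.04 to 5.12, an order largely fixed by how the classes were cut. The order with all reads is not free of that cut either.

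Most of the 350 peaks rested on few reads. Over both libraries a peak held 9 to 1058 distinct reads, with a median of 33, or 36, 25.5 and 34 in the 3 classes from the lowest share to the highest. Across the genome the 2 libraries together gave 8.94 distinct reads per 2000 bp, the width of a deposited peak. All 350 together held 10668 siCTL and 8501 siGPS2 reads, which is 0.163% and 0.172% of the libraries, on 815906 bp.

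The peaks were narrow piles in the lower 2 classes and broader mounds in the top class. Of the reads within 500 bp of the centre, the median share lying within 150 bp was 72.7% at 20 to under 50%, 66.7% at 50 to under 90% and 47.5% at 90% or more, where evenly spread reads would give 30.1%. The breadth was not particular to the top class. Joined peaks of 1 list only with at least 50% high-quality reads had medians of 50% (siCTL list) and 47.1% (siGPS2 list). Over all joined peaks the median was 53.8%. High-quality reads 250 to 750 bp from the centre stood at 2.63 times (2.36 to 2.92) the density of the flank (2000 to 10000 bp away) in siCTL and 2.32 times (2.04 to 2.64) in siGPS2 at 90% or more. At 20 to under 50% these shoulders stood at 1.33 times (1.23 to 1.44) in siCTL and 1.48 times (1.35 to 1.61) in siGPS2. The shoulders of the top class were 2.21 times (1.92 to 2.53) and 1.97 times (1.66 to 2.33) the flank without the 2 peaks of chromosome 10 that hold the most reads. With all reads the shoulders stood at 1.87 times in siCTL and 2.14 times (2.03 to 2.25) in siGPS2 at 20 to under 50%. At 90% or more they stood at 2.55 times in siCTL and 2.19 times (1.93 to 2.48) in siGPS2. The intervals of these classes overlapped in siGPS2 but not in siCTL. Shared peaks under the 20% limit had higher shoulders with all reads, at 3.00 and 3.34 times. The reads that gave the peaks are the reads shown here, so these shapes describe the peaks and test nothing.

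**Figure D2:**
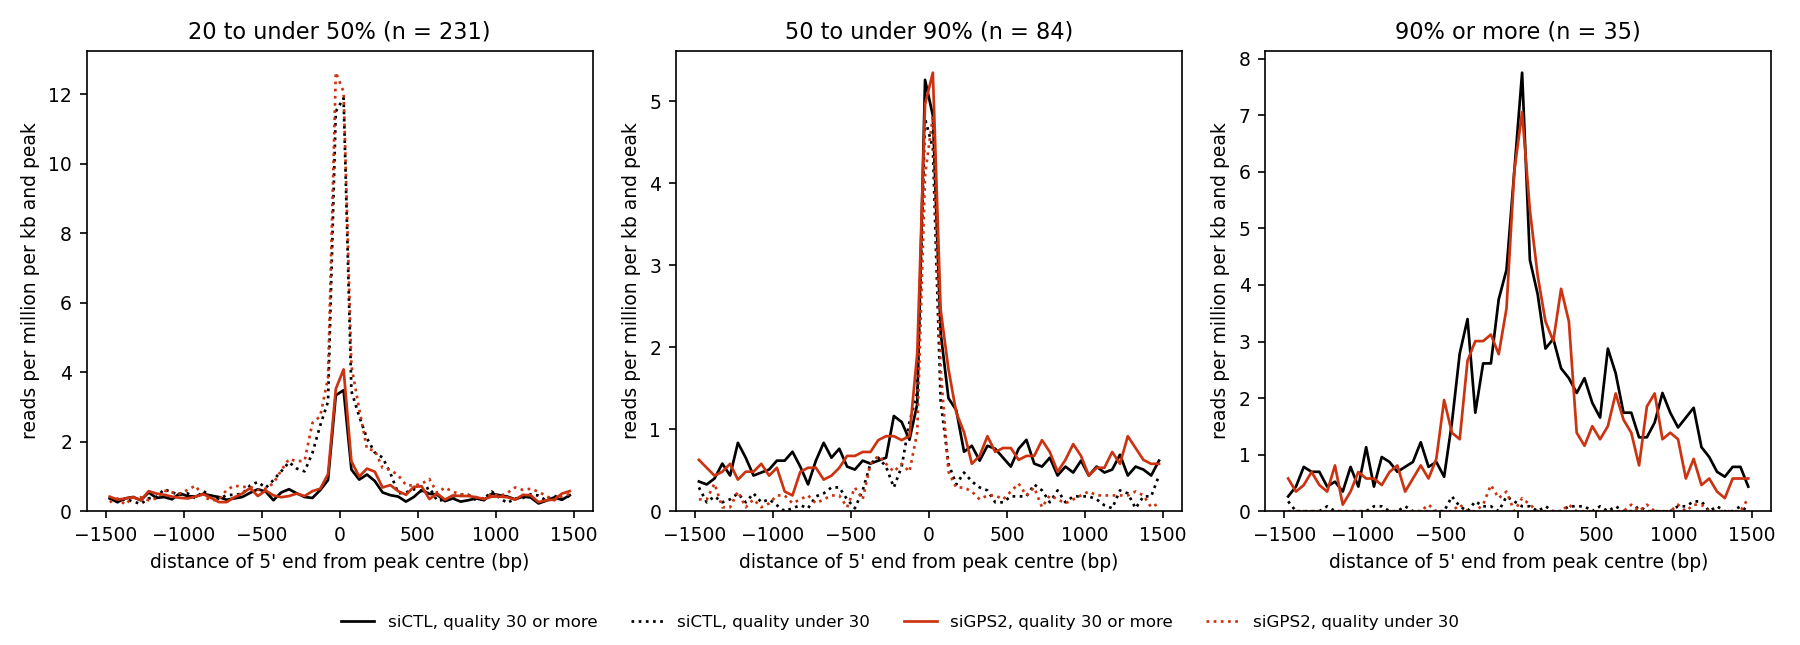
Distinct reads in RPM (scaled to the depth of the library) per kb and per peak in steps of 50 bp against the distance of the read's 5′ end from the peak centre (bp), for the 3 classes in each library. Solid lines are reads of mapping quality 30 or more and dotted lines are the rest, and the vertical scales differ between panels. The 231 peaks at 20 to under 50% form a spike, carried mostly by low-quality reads. The 35 at 90% or more form a mound in both libraries, carried by high-quality reads. Which reads carry each class follows from how the classes were cut.

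With all reads counted, density at the centre against the flank was highest in the class of lowest mapping quality. The median peak had 10.3 times the flank density within 150 bp of its centre at 20 to under 50%, 6.45 times at 50 to under 90% and 4.89 times at 90% or more. With high-quality reads alone the medians were 2.04, 3.85 and 5.12. That order is largely fixed by the classes, which were cut by the share of such reads in the same peaks. The order with all reads is not free of the cut either, since the low-quality reads that lower the share count in it. Summed over the 350 peaks at the centres of each library's own list, the centre stood at 10.2 times the flank (9.93 to 10.6) in siCTL. In siGPS2 it stood at 10.9 times (10.5 to 11.3). With high-quality reads alone the values were 5.67 and 6.07 times. At the centres of the siCTL list, siGPS2 stood at 10.4 times (10.1 to 10.8), or 5.63 times with high-quality reads alone. At the centres of the siGPS2 list, siCTL stood at 10.2 times, or 5.63 times with high-quality reads alone. Shared peaks under the 20% limit had a median of 7.97 with all reads and 0 with high-quality reads alone. Centre values of at least 10 were reached by 141 of the 350 peaks (40.3%), of which 117 were at 20 to under 50%, 19 at 50 to under 90% and 5 at 90% or more. The share was 15.9% over all joined peaks and 44.8% in shared peaks under the 20% limit. In 50 peaks no high-quality read lay within 150 bp of the centre in either library, 46 of them at 20 to under 50% and 4 at 50 to under 90%. The same held for 583 of all 1886 joined peaks and for 153 of the 279 shared peaks under the 20% limit. High-quality reads lay at the centre in both libraries in 219 peaks, including 34 of the 35 at 90% or more, and in 895 of all 1886 joined peaks.

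The strongest peak among those with a share of at least 50% lay on chromosome 10 at 117192452 to 117195563. It held 341 siCTL and 216 siGPS2 reads, 99.3% of them of high quality. Its surroundings were dense too: the flank held 794 siCTL and 654 siGPS2 high-quality reads, 21.5 times the density of the chromosome, and the centre stood at only 3.82 times that flank. The next strongest, on chromosome 10 at 106852785 to 106855087, was a different kind of peak. It held 159 siCTL and 132 siGPS2 reads, 94.2% of high quality, and its centre stood at 83.4 times the flank with all reads and 85.6 times with high-quality reads alone. Within 150 bp of its centre lay 68 siCTL and 67 siGPS2 reads, nearly equal numbers from libraries that differ in depth by a factor of 0.753.

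Other strong peaks with a share of at least 50% differed in the same ways. The peak on chromosome 16 at 57311521 to 57313894 held 119 siCTL and 116 siGPS2 reads with a share of 50.6%, and its centre stood at 97.9 times the flank. On chromosome X the peak at 108486874 to 108488973 held 64 and 45 reads with a share of 61.5% and a centre at 77.1 times the flank. Their flanks held few reads, 48 siCTL and 30 siGPS2 high-quality reads on chromosome 16 and 13 in each library on chromosome X. By contrast, chromosome 2 at 77669730 held 58 siCTL and 34 siGPS2 reads, but its flank was 6.77 times as dense as the chromosome and its centre only 2.07 times the flank. Chromosome 11 at 88783036 to 88787682 held 68 and 55 reads with a share of 82.1%, at 5.48 times the flank. A peak on chromosome 1 at 26629677 to 26633640 joined 5 siCTL and 3 siGPS2 peaks and held 53 and 45 reads, at 11.5 times the flank. On chromosome 8 the peak at 74058836, with 44 and 36 reads, stood at 2.87 times the flank with all reads but 25.4 times with high-quality reads alone. Chromosome 2 at 177052227 held 50 reads in each library, and chromosome 6 at 3131918 held 42 and 39.

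Below a share of 50% the largest pile of all 350 peaks lay on chromosome 15 at 74911824 to 74914991. It held 552 siCTL and 506 siGPS2 reads, only 30.3% of them of high quality, and its centre stood at 205 times the flank. The next were chromosome 17 at 3037594 with 221 and 167 reads, chromosome 2 at 181856867 with 191 and 148, chromosome 11 at 108826778 with 159 and 153, and chromosome 3 at 8227436 with 174 and 134. How much of each pile remained with high-quality reads alone varied widely. On chromosome 3 the centre fell from 62.6 to 8.31 times the flank, and on chromosome 17 it went from 4.90 to 0.472, less than the flank itself.

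Beyond the 2 chromosome 10 peaks, the class at 90% or more consisted of modest peaks. The third in reads, on chromosome 15 at 96112435, held 34 siCTL and 33 siGPS2 reads, and its centre stood at 2.46 times the flank. A few small peaks of this class stood out over their flank more clearly. The peak on chromosome 6 at 30733905 held 24 and 10 reads with a centre at 25.1 times the flank, that on chromosome 18 at 14245507 held 12 and 11 reads at 18.6 times, and that on chromosome 9 at 44631387 held 27 and 15 reads at 17.9 times. These 4 peaks fall outside the rule for named peaks and were chosen after their values were seen. Genes near the peaks are not named, because no annotation of the build of the files (mm8) was used here.

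Minus-strand reads lay a short way after plus-strand reads. With high-quality reads within 500 bp of the centre, the median minus-strand position lay 52 bp (44 to 60) after the median plus-strand position in siCTL and 61 bp (51 to 70) in siGPS2, where a read itself spans 48 bp. At 90% or more the offset was 60 bp (33 to 90) in siCTL and 80 bp (37 to 136) in siGPS2, wide intervals that overlap those of the other classes. These offsets use the centres of each library's own list. At the centres of the siCTL list the siGPS2 offset was 51 bp (39 to 61), and 49 bp (−8 to 113) at 90% or more. At the centres of the siGPS2 list the siCTL offset was 54 bp (43 to 65), and 75.5 bp (17 to 121) at 90% or more. Of 200 peaks with at least 5 reads of each strand at the centre, 182 (91%) had the minus strand after the plus strand, by a median of 44 bp over the 200 peaks. The same share over all joined peaks was 87.3%.

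The libraries placed these peaks at nearly the same spot. The median distance between the centre in the siCTL list and that in the siGPS2 list was 15 bp, and 240 of the 350 (68.6%) lay within 50 bp. Shared peaks under the 20% limit were much alike, with a median of 17 bp and 63.1% within 50 bp. The distance was 11 bp at 20 to under 50% and 16 bp at 50 to under 90%, but 102 bp at 90% or more, where 34.3% of peaks lay within 50 bp. The narrow classes were thus placed more closely than the broad one, as a description of the lists. A single pair of deposited peaks made up 273 of the 350, and the other 77 joined more, up to 10.

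The top class was spread over the chromosomes in other proportions than the rest. Outside peaks, chromosomes 6, 8, 11, 15 and 19 had the most high-quality reads per Mb in each library, 2547 to 2926 in siCTL and 1885 to 2199 in siGPS2, against 1041 to 2414 and 761 to 1839 on the other 15. These 5 chromosomes held 27.6% of high-quality reads but 27 of the 35 peaks at 90% or more (77.1%), where they held 637 of all 1886 joined peaks (33.8%) and 24.7% of shared peaks under the 20% limit. They held 25 of the 84 peaks at 50 to under 90% (29.8%) and 50 of the 231 at 20 to under 50% (21.6%). Joined peaks of 1 list only with a share of at least 50% fell between, with 48.9% for the siCTL list and 55.3% for the siGPS2 list. Chromosomes 8 and 15 held 8 peaks each at 90% or more and chromosome 6 held 7. Chromosome 7 held 18 of the 350 peaks and none with a share of at least 50%. Of peaks at 90% or more, chromosomes 11 and 19, next after chromosome 8 in density, held only 3 and 1. Chromosome 10, not among the 5, held 3. The top class thus lay mostly on the 5 densest chromosomes, but its counts did not follow density from chromosome to chromosome. The part of read density in the peaks being found was not tested.

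**Figure D3:**
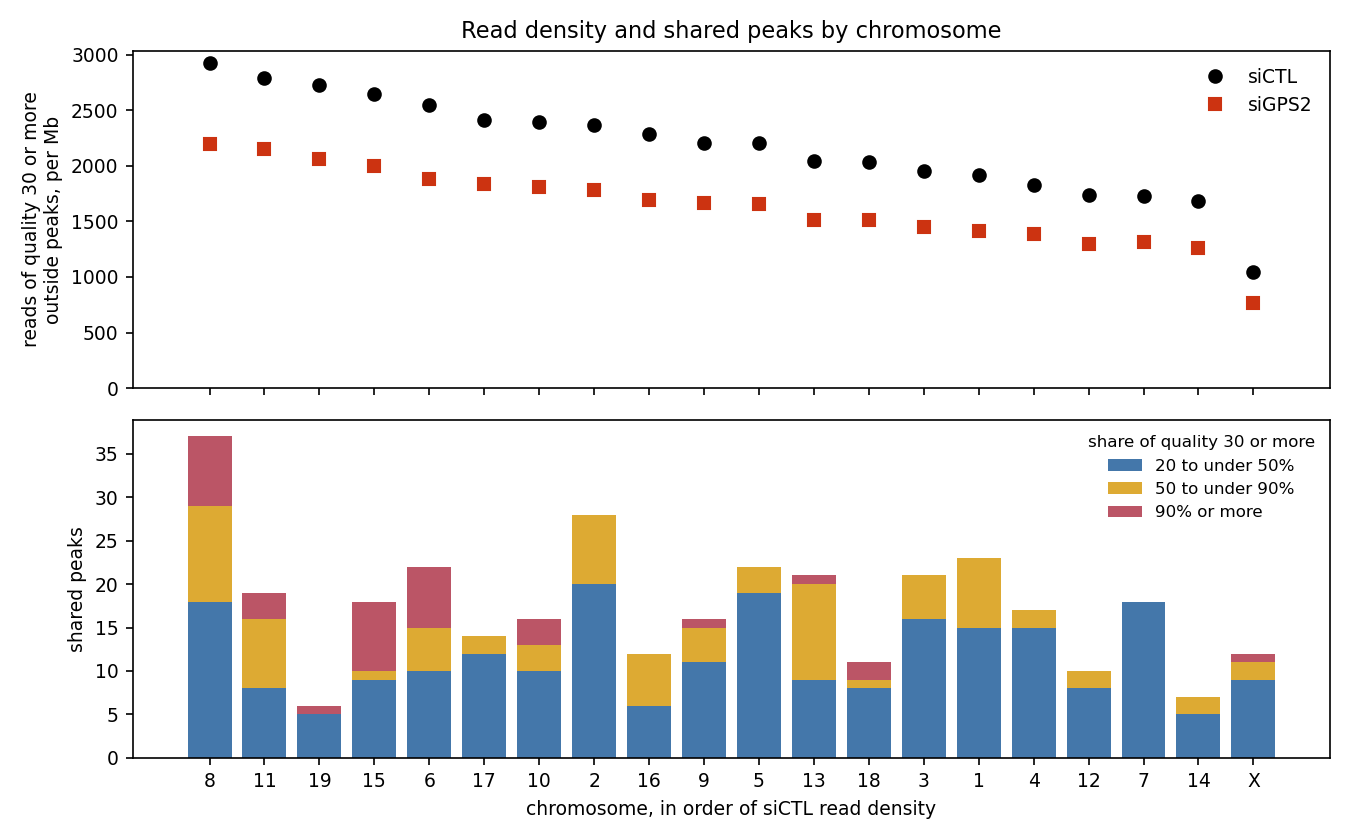
For each chromosome, high-quality reads outside peaks per Mb in each library (top) and the number of selected peaks in the 3 classes (bottom, stacked bars), ordered by siCTL read density. Chromosomes 6, 8, 11, 15 and 19, the densest in reads, hold 27 of the 35 peaks at 90% or more.

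Counted with high-quality reads, the flanks of most peaks were close to the density of the chromosome. By that count the flank stood at a median of 1.03 times the chromosome at 20 to under 50%, 1.14 times at 50 to under 90% and 1.28 times at 90% or more, and at 2 times or more in 16 of the 350 peaks. Summed over the 350 peaks and set against the genome, the flanks stood at 1.68 times in siCTL and 1.69 times in siGPS2 with all reads. With high-quality reads alone these sums were 1.24 and 1.25 times. At 90% or more the order was the reverse, with 1.87 and 1.94 times for all reads and 2.11 and 2.16 times for high-quality reads. Much of this came from the peak with the most reads, on chromosome 10. Without it the values were 1.34 and 1.36 times for all reads. For high-quality reads they were then 1.49 times in each library. Some peaks lay in groups: 73 of the 350 lay in 29 groups with gaps under 100 kb, made up of 52 of the 231 peaks in the lowest class, 17 of the 84 in the middle and 4 of the 35 in the top class. The largest group spanned chromosome 5 from 14928653 to 15069610 with 6 peaks, which together held 342 siCTL and 262 siGPS2 reads, a ratio of 1.02 scaled to depth. The next held 5 peaks on chromosome 8 from 19921937 to 20028222. A group of 3 on chromosome 13 from 21722519 to 21791765 was made up of peaks with a share of at least 50% throughout. Within 500 kb of the first read of a chromosome lay 16 peaks, and within 500 kb of the last lay 9.

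The series asks whether KDM4A on the genome depends on GPS2. Each of the 350 peaks had to be found in both lists, a rule that favours ratios near 1, so they cannot answer it. Joined peaks of 1 list only with at least 50% high-quality reads had summed ratios of 0.862 (siCTL list) and 1.26 (siGPS2 list). Those values are likewise shaped by the choice of list. For the 350 peaks, reads scaled to depth were close to equal in the libraries. The median log2 ratio of siGPS2 over siCTL was 0.06 with quartiles of −0.24 and 0.41, against a median of 0.03 over all joined peaks. The ratio was above 1 in 191 peaks and below 1 in 159. By class the median log2 ratio was 0.09, −0.02 and −0.13 from the lowest share to the highest. RPM, the reads of a peak scaled to library depth, ranked the peaks alike, with a Spearman correlation across the 350 peaks of 0.809, and of 0.839, 0.749 and 0.547 by class. The points share the sequence of the region and its number of copies, so the correlation is a description.

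**Figure D4:**
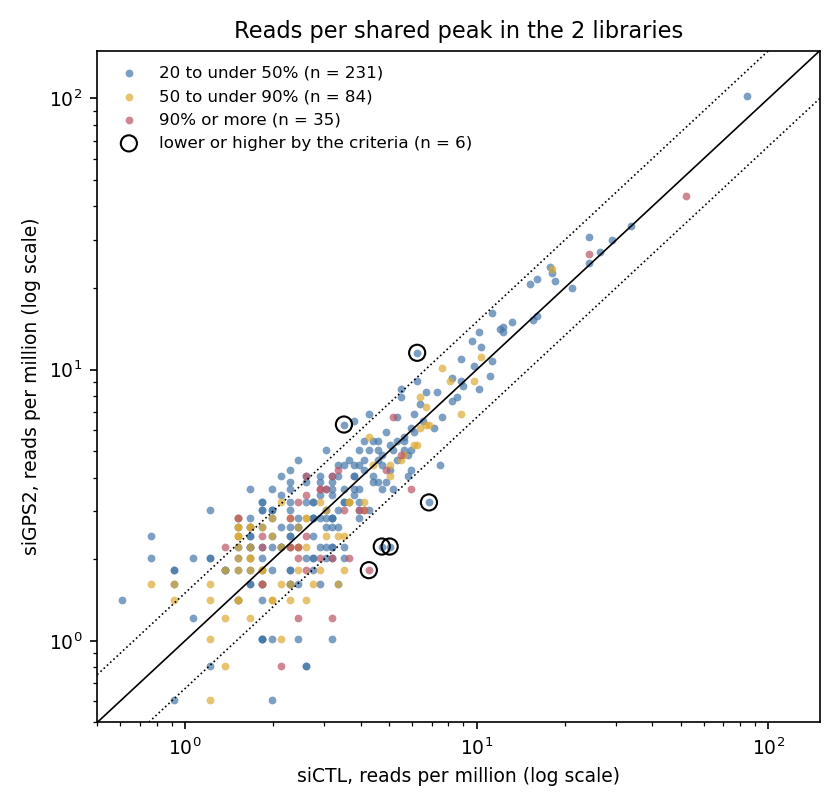
Distinct reads (RPM) in siGPS2 against siCTL for each selected peak (log axes), coloured by class, with a solid line at equal values, dotted lines at a fold of 1.5 and circles around the 6 peaks that met all criteria. Points outside the dotted lines lie mostly among peaks with few reads: by fold alone, 15 of the 202 peaks with at least 30 reads were lower and 16 higher.

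Few of the peaks stood apart in either direction. A peak was taken as lower or higher in siGPS2 when the ratio was 1.5-fold or more from 1, its interval left out 1 and the libraries together had at least 30 reads in the peak. Of 202 peaks with at least 30 reads, 4 were lower (1.98%) and 2 were higher (0.990%), against a background over all joined peaks with at least 30 reads of 1.53% lower and 2.81% higher. By fold alone 15 were lower (7.43%) and 16 higher (7.92%), against 7.03% and 11.3% over all joined peaks. With so few peaks on either side, these shares are no result about the selected peaks.

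The peak lower in siGPS2 with nearly all its reads of high quality lay on chromosome 8 at 3278456 to 3280659. It held 28 siCTL and 9 siGPS2 reads, a ratio of 0.427 (0.177 to 0.930), and 0.381 (0.150 to 0.858) with high-quality reads alone. Within 250 bp of the deposited centre it held 10 and 4 reads, too few to pass, and the ratio was 0.531 (0.122 to 1.84). The other 3 held mostly reads of low quality. Chromosome 17 at 55832752 held 33 and 11 reads, a ratio of 0.443, chromosome 3 at 3016770 held 31 and 11 reads, a ratio of 0.471, and chromosome 14 at 3668302 held 45 and 16 reads, a ratio of 0.472. On chromosome 17 the fold was larger within 250 bp of the centre, 23 and 5 reads and a ratio of 0.289 (0.0857 to 0.776), under the minimum of 30 reads. With high-quality reads alone the ratio there was 0.667 (0.205 to 1.92), and on chromosome 14 it was 0.485 (0.113 to 1.64). Both of these intervals held 1. On chromosome 3 only 10 siCTL reads and 1 siGPS2 read were of high quality. The fifth lowest ratio was at chromosome 8 at 32652224, with 22 and 8 reads, 0.483 (0.186 to 1.13), which did not pass.

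Both peaks that were higher in siGPS2 held mostly reads of low quality. Chromosome 8 at 126485700 to 126487727 held 41 siCTL and 57 siGPS2 reads, a ratio of 1.85 (1.21 to 2.83), with a share of 21.4%. Its high-quality reads numbered 10 and 11. Chromosome 5 at 104570441 to 104573177 held 23 and 31 reads, a ratio of 1.79 (1.01 to 3.21), with a share of 46.3%. It falls outside the rule for named peaks and was chosen after its values were seen. The highest ratio among peaks with at least 30 reads was 1.91 on chromosome 17 at 42205782, with 16 and 23 reads, and its interval held 1. So did the intervals on chromosome 17 at 70867588 with 14 and 20 reads, chromosome 15 at 21058702 with 15 and 21, and chromosome 8 at 58430723 with 13 and 18.

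Among the 15 strongest peaks named above, 10 at a share of 50% or more and 5 below it, the ratios over the whole peak stayed within 1.5-fold. On chromosome 10 at 117192452 the ratio was 0.841 (0.706 to 1.0003), and at 106852785 it was 1.10 (0.868 to 1.40). On chromosome 16 at 57311521 it was 1.29 (0.994 to 1.69), and 1.52 (1.12 to 2.07) with 82 and 94 reads within 250 bp of the deposited centre, where it passed. On chromosome 15 at 74911824, the largest pile, it was 1.22 (1.08 to 1.38), and on chromosome 11 at 108826778 it was 1.28 (1.02 to 1.61). On chromosome 2 at 77669730, the peak on a dense flank, it was 0.778.

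Summed over all reads in the 350 peaks, the ratio was 1.06 (1.03 to 1.09). The summed ratio stepped down as the share of high-quality reads rose: 1.13 (1.10 to 1.15) in shared peaks under 20%, 1.09 (1.05 to 1.13) at 20 to under 50%, 1.01 (0.941 to 1.08) at 50 to under 90% and 0.931 (0.850 to 1.02) at 90% or more. With high-quality reads alone the corresponding values were 1.16 (1.07 to 1.25), 1.08 (1.01 to 1.15), 1.03 and 0.936 (0.854 to 1.03), and over the 350 peaks 1.03 (0.987 to 1.08). The step between classes was larger than counting error in several forms. Peaks with a share of at least 50% had a summed ratio 0.900 times (0.843 to 0.959) that of peaks at 20 to under 50%, or 0.913 times (0.837 to 0.996) with high-quality reads alone. Peaks at 90% or more stood at 0.856 times (0.778 to 0.941).

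The size of that step varied with the single peaks left out. The summed ratio at 90% or more was 0.969 (0.870 to 1.08) without the peak on chromosome 10 at 117192452, and the class then stood at 0.890 times (0.797 to 0.994) the lowest class. With the largest pile, on chromosome 15 at 74911824, left out as well, it stood at 0.898 times (0.804 to 1.004), an interval that holds 1. For peaks with a share of at least 50%, the value without the chromosome 15 peak was 0.908 times (0.851 to 0.969). Without the 2 chromosome 10 peaks that hold the most reads, the summed ratio at 90% or more was 0.937 (0.830 to 1.06). That is close to the value of the whole class. These differences compare 2 libraries, and whether they would recur in further libraries cannot be told from 1 library per group.

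**Figure D5:**
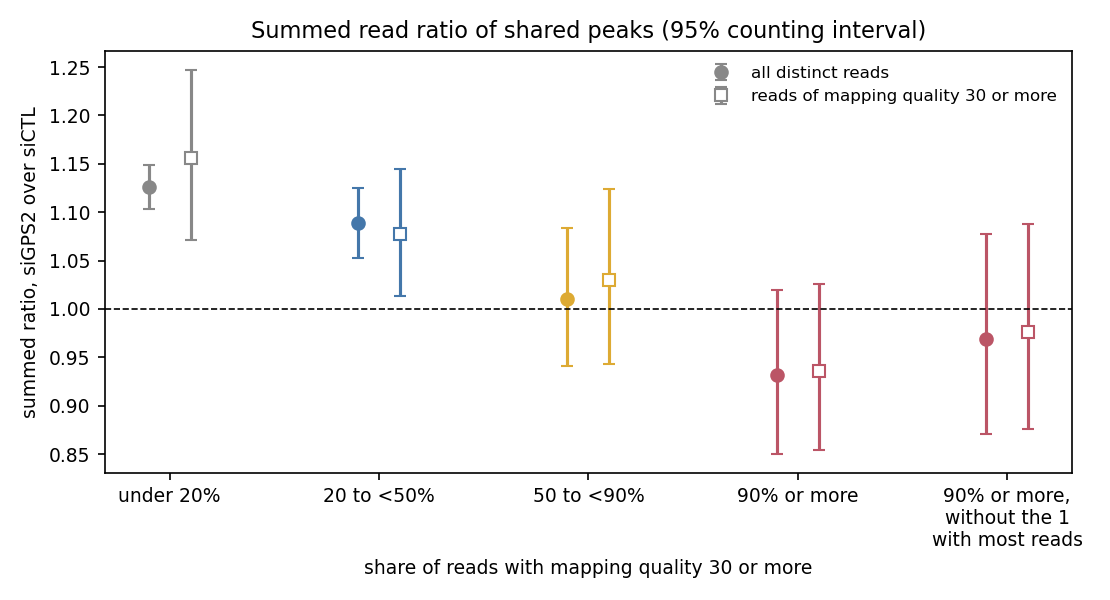
Summed ratio of siGPS2 over siCTL, scaled to depth, for classes of shared peaks by share of high-quality reads, with all reads and with high-quality reads alone, and at the right for the top class without its peak with the most reads. Bars are exact 95% intervals for counting error, and the ratio goes from 1.13 in shared peaks under 20% to 0.931 at 90% or more with all reads.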

How the data were processed

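The authors deposited the aligned reads of each library with its list of peaks. The submitters' processing notes name Bowtie, HOMER and the mouse build mm8 but no roles, and versions are not given in the sources used here. Each deposited read carries a mapping quality score between 0 and 42, as whole numbers with no normalization. The deposited lists give no signal or other value, only coordinates of peaks 2000 bp wide for each library. Incomplete lines, 3 for siCTL and 6 for siGPS2, were not counted.

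Distinct reads were counted by 5′ end, repeats of a position being 0.137% and 0.138% of reads, and divided by library depth in distinct reads (RPM). The centre of a joined peak is that of its siCTL peak placed first in the list, and summed centre values use the centres of each library's own list. A ratio carries an exact conditional (Clopper-Pearson) 95% interval. The intervals, the calls of lower or higher and the strand offset were checked on simulated data, but the counting of reads was not. Peak starts were taken to count from 0, and coordinates are printed counting from 1. Computations used Python 3.11.15, numpy 2.4.6, pandas 2.3.3, scipy 1.17.1 and matplotlib 3.10.9.

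The peaks and classes were chosen with earlier results of these data known. Named peaks are the 10 with the highest mean RPM at a share of 50% or more, the 5 highest at 20 to under 50%, the 5 lowest and 5 highest ratios among peaks with at least 30 reads, and the pairs at each limit. The class at 90%, the 100 kb gap, the shoulder distances, the strand criteria, the 500 kb distance from the first and last read and the set of 5 dense chromosomes were chosen after values were seen.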

Additional observations from a re-analysis of the deposited data

How the results depend on the processing

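Against 6 peaks lower or higher in siGPS2, the count was 1 with high-quality reads alone, 3 with at least 50 reads, 11 with at least 10 reads and 31 by fold alone. The 1 with high-quality reads is chromosome 8 at 3278456. The others of the 6 held 11 to 25 high-quality reads, under the minimum of 30, so they could not pass there. Peaks with at least 30 such reads numbered 75, against 202 with all reads. Within 250 bp of the midpoint of the joined peak the count was 1, at chromosome 12. Within 250 bp of the deposited centre, an alternative added after seeing the data, it was 2. Of the 6, 0 passed in either, but only chromosome 8 at 126485700 held at least 30 reads there. The others could not pass. Its ratio was 1.33 (0.701 to 2.51) about the midpoint and 1.21 (0.625 to 2.32) about the deposited centre. The count was 4 at 2-fold and 5 in flow-cell tiles common to both libraries. The summed ratio of 1.06 had an interval that held 1 with high-quality reads alone, at 1.03, and in the later common tiles, at 1.04 (0.992 to 1.08). It was 1.07 in the earlier ones, and 1.05 without the peak with the most reads, likewise added. The median log2 ratio of 0.06 was −0.01 within 250 bp of the deposited centre. Centre density over flank was 5.67 in siCTL and 6.07 in siGPS2 with high-quality reads alone, 7.47 and 8.06 within 250 bp, and 10.7 in siCTL with the flank at 5000 to 20000 bp. Beyond the minimum of reads, the cause of each of these changes was not tested. The rule gave 240 peaks at a limit of 30%, 353 with a 1000 bp overlap and 346 with all deposited reads. Of the values of named peaks under alternatives, 110 kept their side of the criteria, 14 lost it and 1 gained it. No paired analysis was possible because each group is 1 library. A median of 33 reads per peak limits what single peaks can show.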

Other observations

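In 12 of the 270 selected peaks with at least 10 reads within 150 bp of the centre, at most 10% of those reads lay on the lesser strand (4.44%, against 3.39% over all joined peaks). The peak on chromosome 1 at 158920573 had 0 plus-strand and 14 minus-strand reads there. Chromosome 11 at 87204570 held 28 plus-strand and 0 minus-strand reads. Both were chosen after their values were seen.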
